A study of Mus with 6 samples.

Results

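This account covers 10 genes that restrain mitogen-activated protein kinase (MAPK) signaling, out of 10995 protein-coding genes listed for activated mouse CD4+ T cells. They are the dual-specificity phosphatase genes Dusp1, Dusp2, Dusp4, Dusp5, Dusp6 and Dusp10, the Sprouty genes Spry1 and Spry2, and the Sprouty-related genes Spred1 and Spred2. All 10 were found by symbol in the table, and all 10 passed the filter on low values. They were chosen from these same libraries because Dusp6 was lower and Dusp5 higher with an antibody to VEGF-B. The differences between the groups in these 10 genes are therefore given as a description. No p-value is given for any of them, and the calls they receive in the fit over all genes are only counted, beside the share of all genes called. CD4+ T cells from the spleen of wild-type C57BL/6 mice, naive at the start, were activated for 3 days with anti-CD3 (5 μg/mL), anti-CD28 (2 μg/mL) and IL-2 (100 U/mL). In 3 libraries the cells had an antibody that neutralizes VEGF-B, and in 3 libraries normal goat IgG, each at 1 μg/mL. Activation is shared by both groups, and no resting cells were analysed here. The labels do not say whether the 3 libraries of a group came from separate mice or cultures, so p-values measure only the spread between these libraries, which may be technical.

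T cell receptor and cytokine signals reach the MAPKs through Ras, RAF and MEK for ERK, and through parallel kinase chains for p38 and JNK. Dual-specificity phosphatases switch the MAPKs off by removing phosphate from the threonine and tyrosine of their activation loop, and many of these genes are themselves induced by MAPK activity, which makes them negative feedback regulators. Sprouty and SPRED proteins act higher up, where they limit the activation of Ras and RAF.

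The table does not name its unit. Its values were read as FPKM, a measure relative to transcript length and library total, because they are not whole numbers and the methods name tools that give FPKM. Levels, ratios and sums over different genes rest on that reading, and the number of reads behind a value is unknown. T cell markers were abundant, with a summed level over 8 genes of 574 to 617 FPKM with anti–VEGF-B and 566 to 651 FPKM with IgG. Of these 8 genes, Cd3e and Cd5 were called lower with anti–VEGF-B, and Cd3e was at 12.9, 10.4 and 9.60 FPKM with anti–VEGF-B and 14.2, 18.6 and 15.3 FPKM with IgG. Of the markers of other cells that were analysed here, the 2 CD8 T cell genes summed to 2.29 to 4.69 FPKM, with Cd8a at no more than 0.182 FPKM, and the B cell gene Cd79b lay between 0.665 and 1.34 FPKM. The 2 NK cell genes summed to at most 0.297 FPKM. Pecam1, from the endothelial and stromal markers, was at 5.87 to 7.37 FPKM. The other markers of that set, Cdh5, Col1a1 and Col1a2, were not analysed here, nor were dendritic and erythroid genes. Which cells the Pecam1 RNA came from cannot be told in these bulk libraries. The summed level of 4 myeloid genes was 4.48 to 5.99 FPKM with anti–VEGF-B and 4.88 to 23.1 FPKM with IgG. This range came from IgG replicate 3, in which the macrophage and neutrophil gene Lyz2 was at 16.4 FPKM, against 3.26 to 4.19 FPKM in the other libraries. IgG replicate 2 stood furthest from the anti–VEGF-B libraries, with a score of 27.2 on the first principal component, where the other IgG libraries scored 8.76 and 11.8 and the anti–VEGF-B libraries -13.1, -13.5 and -21.0. Results without either IgG library are given below. The part of these differences in the results was not tested.

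**Figure D1:**
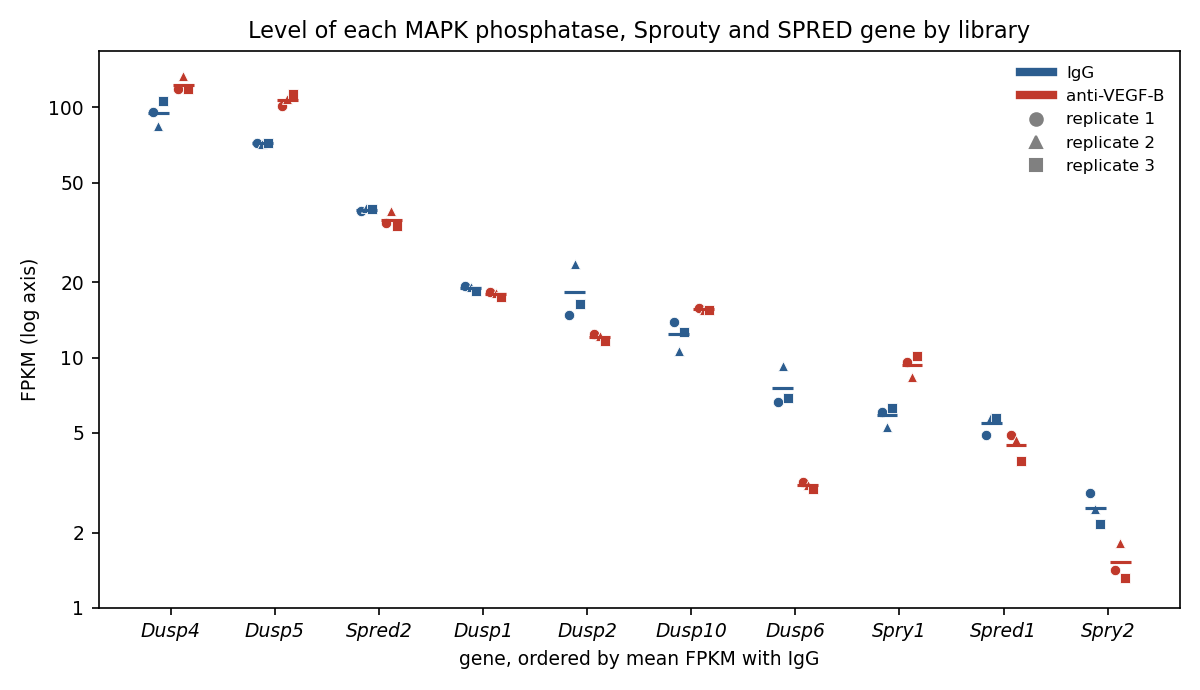
FPKM (log axis) of the 10 genes in each of the 6 libraries, ordered by the mean with IgG (blue: IgG, red: anti–VEGF-B, symbol shape: replicate number, line: group mean). Dusp4 and Dusp5 lie highest in both groups, Dusp6 is at 6.66 to 9.24 FPKM with IgG and 3.00 to 3.17 FPKM with anti–VEGF-B, and Dusp1 and Spred2 lie close together in the 2 groups.

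The ERK phosphatase genes Dusp6 and Dusp5 differed in opposite directions, with Dusp6 lower and Dusp5 higher with anti–VEGF-B. Dusp6, which encodes a cytoplasmic phosphatase selective for ERK (chromosome 10 of GRCm38, 99263231 to 99267489), was at 3.17, 3.09 and 3.00 FPKM with anti–VEGF-B and at 6.66, 9.24 and 6.87 FPKM with IgG. The anti–VEGF-B values lay close together, and all of them were below the lowest IgG value, by at least 3.48 FPKM. The group means were 3.09 ± 0.0892 and 7.59 ± 1.43 FPKM (SD, n = 3 each), a 2.46-fold lower mean level with anti–VEGF-B. The difference in log2(FPKM + 1) was -1.06 (SE 0.12), and this scale makes differences of genes with low FPKM look smaller. Fewer cells that express a gene and less RNA of that gene per cell cannot be told apart in these bulk libraries. Dusp6 was highest in IgG replicate 2, and without that library the difference was -0.93, while without IgG replicate 3 it was -1.12. Dusp5 encodes a nuclear phosphatase that acts on ERK (chromosome 19, 53529109 to 53542431). It was at 101, 108 and 114 FPKM with anti–VEGF-B and at 72.2, 71.5 and 71.9 FPKM with IgG. The 3 IgG values were nearly equal, with a coefficient of variation of 0.496%, and every anti–VEGF-B value lay above them. The means were 107 ± 6.28 and 71.9 ± 0.357 FPKM, or 1.495 times as high with anti–VEGF-B, and the log2 difference was 0.57 (SE 0.071). Leaving out each library in turn moved it between 0.53 and 0.61.

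A ratio of FPKM within a library cancels any factor that multiplies all values of that library. It does not cancel quantile normalization, which can shift genes by different amounts. Dusp5 exceeded Dusp6 by 31.8, 34.9 and 37.9 times in the anti–VEGF-B libraries and by 10.8, 7.74 and 10.5 times in the IgG libraries. The ratio averaged 34.9 ± 3.04 in the former and 9.68 ± 1.70 in the latter (SD, n = 3 each). Every anti–VEGF-B ratio was above every IgG ratio. This gap follows from the choice of the genes, made because Dusp6 was lower and Dusp5 higher, and is a description only.

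**Figure D2:**
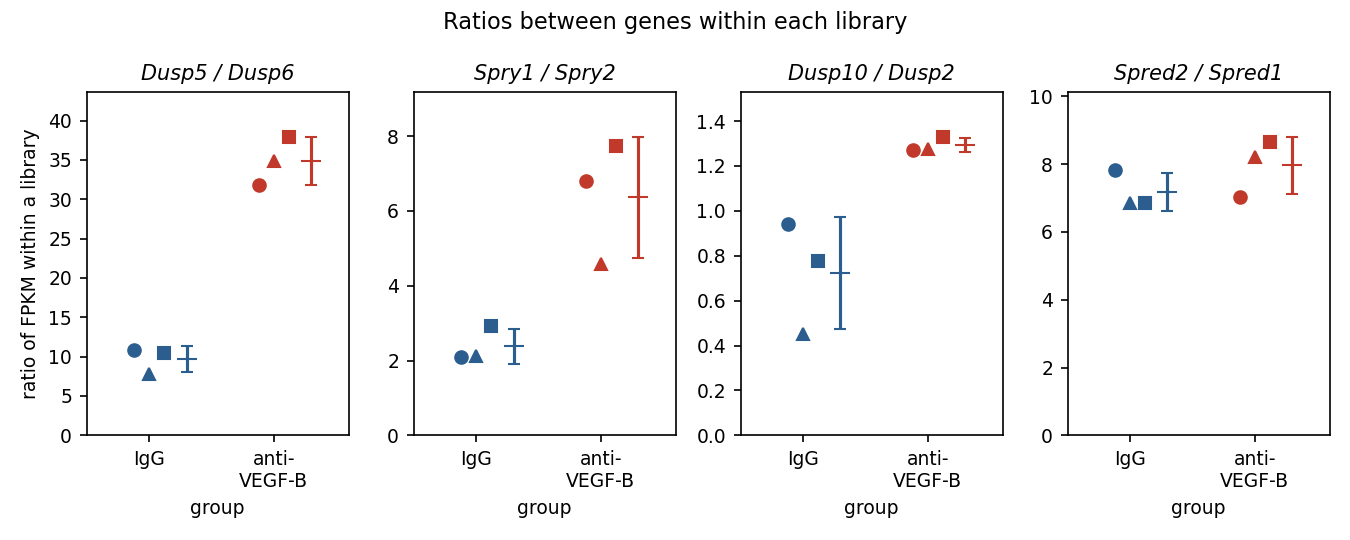
Ratio of FPKM within each library for 4 pairs of genes (blue: IgG, red: anti–VEGF-B, symbol shape: replicate number, bar: mean ± SD, n = 3, axes from 0). Dusp5 over Dusp6 runs from 7.74 to 10.8 with IgG and from 31.8 to 37.9 with anti–VEGF-B. Spry1 over Spry2 and Dusp10 over Dusp2 are also higher in every anti–VEGF-B library. These pairs each set a gene that was higher with anti–VEGF-B over a gene that was lower. Spred2 over Spred1 overlaps between the groups.

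Among the other inducible phosphatases, Dusp4 and Dusp10 were higher with anti–VEGF-B and Dusp2 was lower. Dusp4, the most abundant of the 10 genes, encodes a nuclear phosphatase (chromosome 8, 34807297 to 34819894). It was at 119, 134 and 118 FPKM with anti–VEGF-B and at 96.0, 84.0 and 105.7 FPKM with IgG, with a log2 difference of 0.37 (SE 0.097). All anti–VEGF-B values were above the IgG values, by at least 12.2 FPKM. The ratio of Dusp4 to Dusp5 was 1.151 ± 0.104 with anti–VEGF-B and 1.32 ± 0.148 with IgG, and its values overlapped between the groups. Dusp10, whose product acts on p38 and JNK rather than ERK (chromosome 1, 184013302 to 184075636), was at 15.8, 15.6 and 15.5 FPKM with anti–VEGF-B and at 13.9, 10.6 and 12.7 FPKM with IgG. The log2 difference was 0.32 (SE 0.10), the smallest among the 4 higher genes. Dusp2, which encodes a nuclear phosphatase first known from activated lymphocytes (chromosome 2, 127336159 to 127338376), was at 12.4, 12.2 and 11.6 FPKM with anti–VEGF-B and at 14.8, 23.6 and 16.3 FPKM with IgG. IgG replicate 2 was far above the rest, and the log2 difference of -0.53 (SE 0.15) became -0.34 without it. Dusp10 exceeded Dusp2 in each anti–VEGF-B library, at 1.27, 1.28 and 1.33 times its level, and was below Dusp2 in each IgG library, at 0.940, 0.450 and 0.776 times. Dusp6 and Dusp10 overlap other genes in the RefSeq annotation of GRCm38. These are the noncoding gene Gm34921 at Dusp6, and the noncoding gene Gm39725 and the protein-coding 1700056E22Rik at Dusp10. The kit was stranded, but use of strand in quantification is not given in the sources used here, so reads of these genes may not be separate.

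Dusp1, the immediate early phosphatase that acts on p38 and JNK as well as ERK (chromosome 17, 26505590 to 26508519), had close values in both groups. It was at 18.4, 18.1 and 17.5 FPKM with anti–VEGF-B and at 19.2, 19.2 and 18.4 FPKM with IgG. The groups were apart by 0.0465 FPKM, less than the SD within either group (0.424 and 0.458 FPKM). The log2 difference was -0.070 (SE 0.073), and it turned to 0.038 after quantile normalization and to 0.13 after each library was centred on its median.

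The Sprouty genes, whose products limit signaling from receptors to Ras and RAF, also differed in opposite directions, with Spry1 higher and Spry2 lower with anti–VEGF-B. Spry1 (chromosome 3, 37639947 to 37644598) was at 9.64, 8.34 and 10.1 FPKM with anti–VEGF-B and at 6.04, 5.27 and 6.32 FPKM with IgG. All anti–VEGF-B values were above the IgG values, the mean was 1.596 times as high, and the log2 difference was 0.59 (SE 0.11). Spry2 (chromosome 14, 105891947 to 105896819), the least abundant of the 10 genes, was at 1.42, 1.82 and 1.31 FPKM with anti–VEGF-B and at 2.87, 2.48 and 2.17 FPKM with IgG. Its groups did not overlap either, with all anti–VEGF-B values below, and the log2 difference was -0.48 (SE 0.12). With a pseudocount of 0.1 in place of 1 the difference of this low gene was -0.69. Spry1 exceeded Spry2 by 6.79, 4.58 and 7.73 times in the anti–VEGF-B libraries and by 2.102, 2.12 and 2.92 times in the IgG libraries.

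The SPRED genes, whose products bind neurofibromin and so favor the return of Ras to its inactive state, had the smallest gaps between the groups. Spred2 (chromosome 11, 19924375 to 20024026) was at 34.4, 38.4 and 33.6 FPKM with anti–VEGF-B and at 38.4, 39.6 and 39.2 FPKM with IgG. Spred1 (chromosome 2, 117121374 to 117182279) was at 4.89, 4.68 and 3.88 FPKM with anti–VEGF-B and at 4.91, 5.77 and 5.72 FPKM with IgG. In each gene anti–VEGF-B came within 0.0327 FPKM of IgG at the nearest, although no value crossed over. The log2 differences were -0.14 (SE 0.076) for Spred2 and -0.24 (SE 0.11) for Spred1. After median centring they were 0.062 and -0.040, and the ratio of Spred2 to Spred1 overlapped between the groups (7.96 ± 0.838 and 7.18 ± 0.565).

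The scaling between libraries matters for these directions, because the median log2 difference of the 8816 genes tested was -0.15. Relative to that median the differences were -0.91 for Dusp6, -0.38 for Dusp2, -0.33 for Spry2, -0.089 for Spred1, 0.014 for Spred2, 0.082 for Dusp1, 0.47 for Dusp10, 0.53 for Dusp4, 0.72 for Dusp5 and 0.74 for Spry1. Dusp6, Dusp2 and Spry2 stayed lower, and Dusp4, Dusp5, Dusp10 and Spry1 higher, whether libraries were quantile normalized or centred on their medians. Dusp1 changed sign under both, and Spred2 under median centring.

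**Figure D3:**
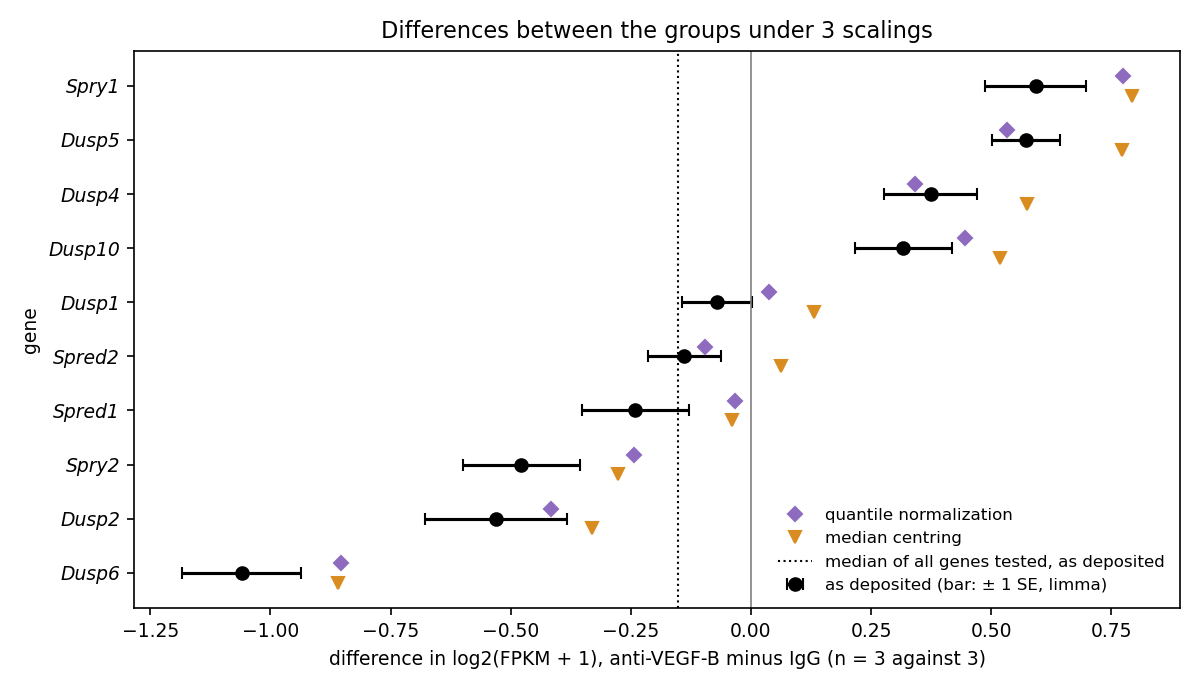
Difference in log2(FPKM + 1) between anti–VEGF-B and IgG (n = 3 each) for the 10 genes, as deposited (black, ± 1 SE from limma), with quantile normalization (diamonds) and with median centring (triangles). The differences run from -1.06 for Dusp6 to 0.59 for Spry1, and the dotted line marks the median of all genes tested (-0.15).

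Of the 10 genes, 3 were lower (Dusp6, Dusp2 and Spry2) and 4 higher (Dusp5, Dusp4, Spry1 and Dusp10) at an adjusted p under 0.05 in limma (Benjamini-Hochberg over all genes tested). Over all genes 23.8% were called lower and 4.87% higher. All 10 genes had groups that did not overlap, with 6 lower and 4 higher, where 38.5% of all genes lay apart as lower and 10.5% as higher. Nothing is drawn from these counts or from how they vary, since the genes were chosen on this contrast. Without anti–VEGF-B replicate 1 the counts were 1 lower and 3 higher, and without anti–VEGF-B replicate 2 they were 2 and 2. They were 1 and 2 without anti–VEGF-B replicate 3, 3 and 2 without IgG replicate 2, and 3 and 3 without IgG replicate 3. With either other scaling 1 was called lower and 4 higher, and with no moderation of the variances none was called. Over the 14 alternatives Dusp10 was called in 6 and Dusp2 in 8, and the other genes named here in 8 to 13. The median log2 difference of the 10 genes was -0.10, and that of all genes was -0.15.

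In order of level, Dusp4 came first in both groups, then Dusp5 and Spred2, and Spry2 came last. With IgG the means ran from 95.2 FPKM for Dusp4 through 18.9 for Dusp1, 18.3 for Dusp2 and 12.4 for Dusp10 to 2.51 for Spry2. The order of some neighbours was not resolved, since the ranges of Dusp1 and Dusp2 overlapped, as did those of Spry1 (5.87 FPKM) and Spred1 (5.47 FPKM). With anti–VEGF-B no neighbouring ranges overlapped, and Dusp6, which ranked 7 with IgG, ranked 9, below Spry1 and Spred1. Dusp6 lay above 63.1% of all listed genes by its mean with IgG and above 46.4% with anti–VEGF-B. Dusp5 lay above 95.6% and 96.9%. The FPKM of the 6 DUSP genes summed to 279.7 ± 10.3 with anti–VEGF-B and 224 ± 7.03 with IgG. Dusp4 and Dusp5 made up 82.5% ± 0.879 of this sum with anti–VEGF-B and 74.4% ± 2.80 with IgG, and Dusp6 made up 1.10% ± 0.0632 and 3.40% ± 0.729. The summed FPKM of the 4 Sprouty and SPRED genes was 50.8 ± 2.21 and 52.9 ± 0.580.

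The genes nearest to Dusp6 and Dusp5 were found by the root mean square difference, over the 6 libraries, of log2(FPKM + 1) centred on each gene's own mean. For Dusp6 these were Clec2i (0.0574), Zadh2 (0.0582) and Pmaip1 (0.0583). Pmaip1, which encodes the pro-apoptotic BH3-only protein NOXA, was at 9.62, 10.5 and 9.56 FPKM with anti–VEGF-B and at 18.2, 25.0 and 18.7 FPKM with IgG. For Dusp5 they were Papss1 (0.0434), Sap18 (0.0474) and Prdx5 (0.0493). Prdx5, which encodes a peroxiredoxin, was at 49.7, 51.1 and 53.5 FPKM with anti–VEGF-B and at 34.4, 36.0 and 37.1 FPKM with IgG. The 6 libraries fall into 2 groups, so the measure mostly reflects the difference between them.

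Other genes of the MAPK pathways were written into 7 lists from general knowledge, but with earlier results of these data known. Counts over these lists are therefore a description and not independent evidence. Of 102 such genes tested, 39 fell and 6 rose at an adjusted p under 0.05 in limma, beside 23.8% and 4.87% over all genes. The counts were 25 and 12 under quantile normalization and 15 and 16 under median centring, so that the split between falls and rises depended on the scaling. Without anti–VEGF-B replicate 3 they were 13 and 2, without anti–VEGF-B replicate 1 they were 24 and 6, and without anti–VEGF-B replicate 2 they were 30 and 4. Leaving out IgG replicate 2 gave 23 and 3, and leaving out IgG replicate 3 gave 32 and 5. Calls given below with their values are past the limit with each library left out in turn, except where a library is named, and none of the 25 genes that the naming rule picks from the lists is past it with no moderation of the variances (adjusted p from 0.0696 to 0.140 in limma).

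**Figure D4:**
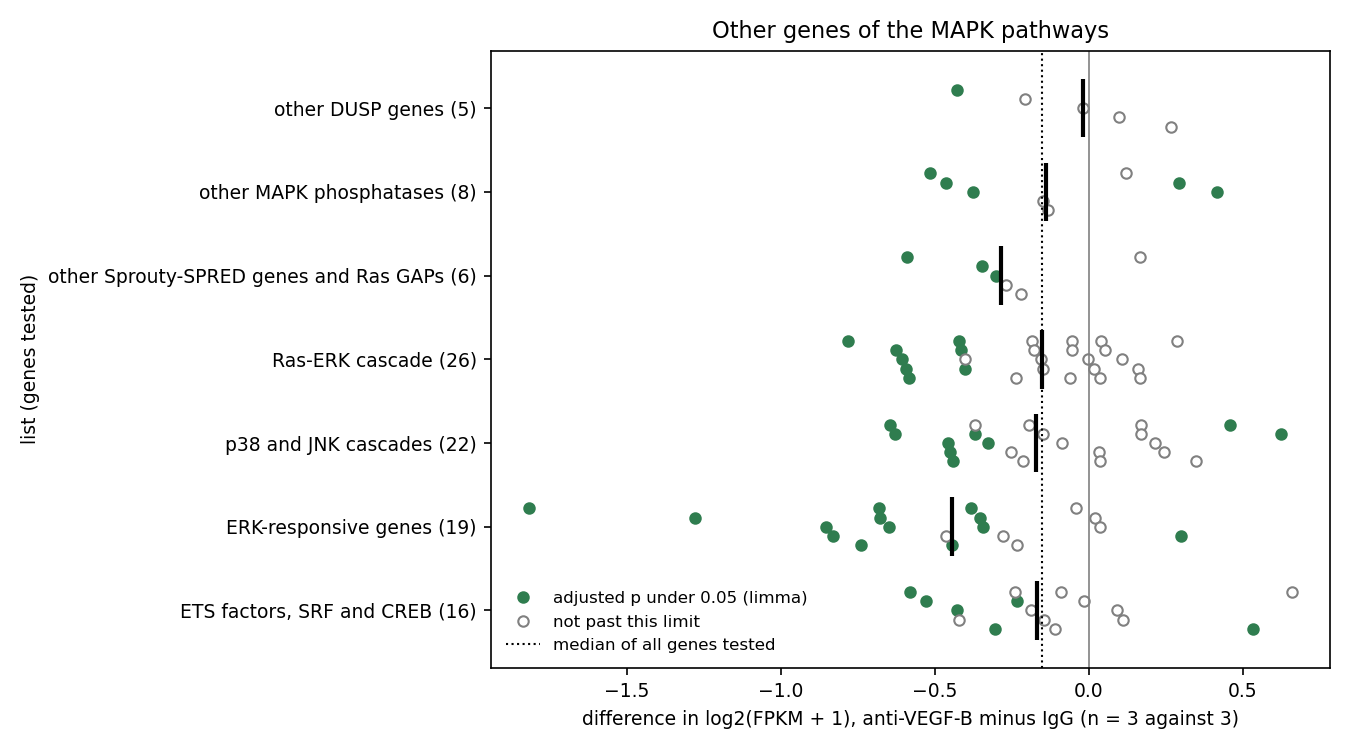
Difference in log2(FPKM + 1) between anti–VEGF-B and IgG (n = 3 each) for the tested genes of 7 lists, with filled points at an adjusted p under 0.05 in limma, bars for the list medians and a dotted line for the median of all genes. The list of ERK-responsive genes has the lowest median (-0.44), with Egr1 at -1.82 and Ier2 at -1.28. All lists were written with earlier results of these data known.

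Of 5 further DUSP genes tested, 1 fell and none rose, while quantile normalization gave 0 lower and 1 higher and median centring 0 and 2. These genes share the family name, and whether each product acts on MAPKs was not examined here. With no filter on low values, and so more genes tested, the counts were 3 and 1. Dusp7, which encodes another cytoplasmic ERK phosphatase, was at 3.37, 3.08 and 2.94 FPKM with anti–VEGF-B and at 5.26, 4.43 and 4.04 FPKM with IgG. The fall was -0.43 on the log2 scale (SE 0.11, adjusted p = 0.0232 from limma), and the call was lost after quantile normalization and median centring, and without anti–VEGF-B replicate 2 (adjusted p = 0.0601), anti–VEGF-B replicate 3 (0.0829) or IgG replicate 1 (0.0511), against 0.0206 to 0.228 over the alternatives. The other 4 did not pass, namely Dusp14 (-0.21), Dusp19 (-0.019), Dusp11 (0.097) and Dusp16 (0.27). Dusp16 was called higher under both other scalings (limma adjusted p = 0.0154 with quantile normalization and 0.0151 with median centring, against 0.0151 to 0.307 over the alternatives), and Dusp11 under median centring (0.0370, against 0.0370 to 0.535). The third SPRED gene, Spred3, did not pass (-0.27, limma adjusted p = 0.118). Of 5 Ras GTPase-activating genes tested beside it, 3 fell and none rose, while either other scaling gave 1 lower and 1 higher, and 1 was lower when anti–VEGF-B replicate 1 or 3, or IgG replicate 2 or 3, was left out. Rasa3 was at 3.24, 3.47 and 3.62 FPKM with anti–VEGF-B and at 5.24, 6.64 and 5.24 FPKM with IgG, or -0.59 in log2 (limma adjusted p = 0.00918). Rasal3 (-0.35) and Rasa1 (-0.30) fell less. The calls on both were lost after quantile normalization and median centring and without anti–VEGF-B replicate 1 (adjusted p = 0.0982 and 0.0822), anti–VEGF-B replicate 3 (0.0920 and 0.0945), IgG replicate 2 (0.0977 and 0.0521) or IgG replicate 3 (0.0570 and 0.0883), against 0.0178 to 0.418 over the alternatives. The Ras GTPase-activating gene Nf1, which encodes neurofibromin, the partner of SPRED proteins, had -0.22 (adjusted p = 0.186 from limma). Rasa2 was at 9.78, 10.4 and 10.7 FPKM with anti–VEGF-B and at 8.59, 8.99 and 9.63 FPKM with IgG. It did not pass (0.17, limma adjusted p = 0.165), but was called higher under quantile normalization (0.0358) and median centring (0.0200), against 0.0200 to 0.376 over the alternatives.

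Of 8 other phosphatase genes whose products act on MAPKs, 3 fell and 2 rose. Quantile normalization gave 1 lower and 2 higher, and median centring 0 and 3. Without anti–VEGF-B replicate 1 the counts were 1 and 2, without anti–VEGF-B replicate 2 they were 3 and 1, without anti–VEGF-B replicate 3 or IgG replicate 2 they were 1 and 0, and without IgG replicate 3 they were 2 and 1. Ppm1d, a p53-induced phosphatase gene that acts on p38, was lower with anti–VEGF-B (17.3 ± 2.48 FPKM) than with IgG (25.1 ± 2.06 FPKM), by -0.52 in log2 (limma adjusted p = 0.0133), and its call was lost after median centring. Ptpn7, the hematopoietic tyrosine phosphatase of ERK and p38, had -0.46 and Ptpn5 had -0.37. The calls on both were lost after quantile normalization and median centring and without anti–VEGF-B replicate 1 (adjusted p = 0.0643 and 0.0770), anti–VEGF-B replicate 3 (0.103 and 0.125) or IgG replicate 2 (0.0719 and 0.0777), and that on Ptpn5 without IgG replicate 3 (0.0912), against 0.0210 to 0.310 over the alternatives. Ppm1a, whose product acts on p38 and JNK pathway kinases, rose from 6.73 ± 0.451 to 9.36 ± 1.14 FPKM (0.42, adjusted p = 0.0210 from limma), and Ppp2ca, a catalytic subunit of PP2A, from 51.5 ± 2.83 to 63.4 ± 2.06 FPKM (0.29, adjusted p = 0.0190). The calls on Ppm1a and Ppp2ca were lost without anti–VEGF-B replicate 3 (adjusted p = 0.0696 and 0.0758) or IgG replicate 2 (0.0577 and 0.0573), and that on Ppm1a also without anti–VEGF-B replicate 2 (0.0654) or IgG replicate 3 (0.0526), against 0.00951 to 0.0891 over the alternatives.

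In the cascade from the T cell receptor to ERK, 8 of 26 genes fell and none rose, with a list median of -0.15, the same as that of all genes. Rasgrp1 and Lcp2 were among the falls. Rasgrp1, the main Ras activator downstream of the T cell receptor, was at 19.0, 18.8 and 14.7 FPKM with anti–VEGF-B and at 26.9, 36.8 and 28.9 FPKM with IgG. Its log2 difference was -0.78 (SE 0.13, adjusted p = 0.00738 from limma). Lcp2, which encodes the adaptor SLP-76, fell from 36.9 ± 6.47 to 23.4 ± 2.05 FPKM (-0.63, limma adjusted p = 0.00990). Both calls were kept under both scalings. Quantile normalization gave 5 lower and 1 higher in this list, and median centring 5 and 2. The counts were 4 and 0 without anti–VEGF-B replicate 3, and without IgG replicate 2 they were 5 and 0.

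In the p38 and JNK cascades, to which the target kinases of Dusp10 belong, 7 of 22 genes fell and 2 rose. Gadd45g encodes an activator of the p38 and JNK kinase MEKK4. It was at 256, 307 and 278 FPKM with anti–VEGF-B and at 201, 162 and 182 FPKM with IgG. The log2 difference was 0.62 (SE 0.099, adjusted p = 0.00634 from limma). Tab2, which encodes an adaptor of the kinase TAK1, rose from 35.7 ± 1.09 to 49.5 ± 4.58 FPKM (0.46, adjusted p = 0.00860). The p38-activated kinase gene Mapkapk3 fell from 19.3 ± 3.33 to 11.9 ± 1.39 FPKM (-0.64, adjusted p = 0.0104). Falls were also called for Mapk11 (p38β, -0.63) and the kinase gene Map3k11 (-0.46). The call on Mapk11 was lost after quantile normalization, and those on Mapk11 and Map3k11 after median centring and without anti–VEGF-B replicate 3 (adjusted p = 0.0952 and 0.0727) or IgG replicate 2 (0.0900 and 0.0538), and that on Mapk11 without anti–VEGF-B replicate 1 (0.0761), against 0.0142 to 0.140 over the alternatives. Quantile normalization gave 5 lower and 3 higher in this list, and median centring 1 and 5. Without anti–VEGF-B replicate 3 the counts were 1 and 2, without IgG replicate 2 they were 2 and 2, without anti–VEGF-B replicate 1 they were 4 and 2, and without IgG replicate 1 they were 7 and 3.

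Among 19 genes that are induced by ERK or by T cell receptor signals in many cells, 12 fell and 1 rose. Over all genes 23.8% were called lower and 4.87% higher. The list was written with earlier results of these data known, so its counts and median are a description only. The median log2 difference was -0.44, or -0.29 relative to all genes. The early growth response factor gene Egr1 was at 8.72, 8.62 and 4.49 FPKM with anti–VEGF-B and at 21.3, 39.0 and 24.1 FPKM with IgG. Its log2 difference was -1.82 (SE 0.26, adjusted p = 0.00491 from limma). Ier2 was at 23.0, 25.7 and 16.0 FPKM with anti–VEGF-B and at 52.8, 62.8 and 44.4 FPKM with IgG (-1.28, adjusted p = 0.00488). Ier5 fell from 32.4 ± 4.10 to 17.4 ± 1.47 FPKM (-0.85, adjusted p = 0.00469). In each of these genes every anti–VEGF-B value was below every IgG value. The rise was that of the AP-1 gene Fosl2, from 141 ± 9.48 to 173 ± 3.75 FPKM (0.30, adjusted p = 0.0191 from limma). Its call was lost without anti–VEGF-B replicate 2 (adjusted p = 0.0506), anti–VEGF-B replicate 3 (0.0645) or IgG replicate 2 (0.0509), against 0.0135 to 0.0759 over the alternatives. Of the other AP-1 genes in this list, 4 fell, namely Fosl1 (-0.83), Fos (-0.65), Jund (-0.44) and Fosb (-0.38), with adjusted p from 0.0129 to 0.0270 in limma, and Junb (0.020) and Jun (-0.042) did not pass. The call on Fosl1 was kept under both other scalings and without each library. The calls on Fos and Fosb were lost under both scalings and that on Jund under median centring. That on Fos was also lost when anti–VEGF-B replicate 3, or IgG replicate 1 or 2, was left out, that on Jund without anti–VEGF-B replicate 1 or 3, and that on Fosb without any of the anti–VEGF-B replicates or IgG replicate 3. Under quantile normalization 10 genes of this list were lower and 1 higher, and under median centring 6 and 1. The counts were 5 and 0 without anti–VEGF-B replicate 3, and 8 and 1 without anti–VEGF-B replicate 1. Without anti–VEGF-B replicate 2 they were 9 and 0, and without IgG replicate 2 they were 10 and 0.

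Of 16 genes of ETS factors, SRF and the CREB family, some of whose products carry ERK signals to promoters, 5 fell and 1 rose. Quantile normalization gave 3 lower and 3 higher, and median centring 2 and 2. The counts were 1 and 0 without anti–VEGF-B replicate 3, and they were 3 and 1 without anti–VEGF-B replicate 1, anti–VEGF-B replicate 2 or IgG replicate 2. Elk3 (-0.58, adjusted p = 0.0138 from limma), Fli1 (-0.53, adjusted p = 0.0122) and Etv6 (-0.43, adjusted p = 0.0237) had the largest falls. Etv6 lost its call after median centring and without IgG replicate 2 (adjusted p = 0.0700), and Elk3 and Etv6 without anti–VEGF-B replicate 3 (0.0536 and 0.0646), against 0.0134 to 0.142 over the alternatives. Crem, which encodes a cAMP-responsive factor, rose from 34.7 ± 4.49 to 50.7 ± 7.09 FPKM (0.53, limma adjusted p = 0.0162). That call was lost without anti–VEGF-B replicate 1 (adjusted p = 0.050) or anti–VEGF-B replicate 3 (0.0595), against 0.00847 to 0.11 over the alternatives.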

How the data were processed

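RNA-Seq of 6 libraries was analysed, 3 per group, grouped by their titles. The authors aligned reads of stranded libraries to GRCm38 with hisat2, used StringTie and Ballgown for transcript levels, and deposited 1 value per gene and library for 10995 protein-coding genes, with no unit named and no scaling between libraries stated. These deposited values were read as FPKM from those tools. They are not whole numbers, although the methods also mention raw counts, so no count model was run. At most 2.62% of genes under 0.3 FPKM shared a ratio between libraries, so whole reads were not recovered and depth is unknown.

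In R 4.3.3, limma 3.58.1 (empirical Bayes with trend) was fitted to log2(FPKM + 1) of the 8816 genes that averaged 1 FPKM or more over the 6 libraries, with no covariate. The limit for a call was a Benjamini-Hochberg adjusted p of 0.05. The fit was tested on simulated data. Fits without the filter, with a filter at 5 FPKM, a pseudocount of 0.1, quantile normalization, median centring, no trend, no moderation, the replicate number as a block, and each library left out gave the alternatives.

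The 10 genes and the 7 lists were chosen with earlier results of these data known. The text names the 10 genes, up to 3 called falls and 3 called rises per list with the largest changes, the 3 genes nearest to Dusp6 and to Dusp5, and, beyond this rule, the other DUSP, SPRED, Ras GTPase-activating and AP-1 genes, which were chosen after their values were seen. Some list genes counted here are not reported by name. Map2k7, with more than 1 row, was left out. Genome coordinates are as deposited. Comparisons of promoter and protein sequences were not run.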

Additional observations from a re-analysis of the deposited data

How the results depend on the processing

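The differences of the 10 genes moved by less than the residual SD in each fit that left out a library and with the replicate number as a block. The design sets both outcomes in advance, so they say nothing of how stable the differences are. A block leaves each difference as it was, since every number occurs once per group. Leaving out a library shifts its group mean by only part of that library's deviation. Of their values under the other alternatives, 16 moved further, 9 under median centring, 5 under quantile normalization and 2 with a pseudocount of 0.1. Spread between 3 libraries is the only error, as the depth is unknown. Over all genes the calls (lower and higher) were 2099 and 429. Quantile normalization gave 913 and 880, median centring 807 and 1365, and they were 989 and 342 with a mean of at least 5 FPKM and 6 and 6 with no moderation. With each library left out they ranged from 702 to 2074 and from 163 to 395. For the 10 genes (3 and 4) the calls were 1 and 4 after either scaling and 0 and 0 with no moderation. With each library left out they ranged from 1 to 3 and from 2 to 4. In the fit with no moderation, 6 of the 10 genes and 49 of the 102 list genes had an unadjusted p under 0.05. Over all genes 3208 of 8816 did. For the lists (39 and 6) quantile normalization gave 25 and 12, and median centring 15 and 16. The list calls were 26 lower with a mean of at least 5 FPKM, where fewer genes were tested, and 0 and 0 with no moderation. They ranged from 13 to 37 and from 2 to 7 with each library left out. Other causes were not tested. Of the 25 genes that the naming rule picks from the lists, 19 kept their call under quantile normalization, 16 under median centring and 0 with no moderation (adjusted p from 0.0696 to 0.140 in limma). Leaving out anti–VEGF-B replicate 3 kept 12 of these calls, leaving out IgG replicate 2 kept 15, and leaving out any other library kept at least 19. Same-numbered libraries shared little, with correlations of their deviations from the group means of -0.030, 0.11 and 0.089, and not every library correlated best with its own number. The fit with the replicate block gave 2109 lower and 469 higher and changed no call on the 10 genes or these 25.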
